A study of Mus musculus with 4 samples.

Results

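Prostaglandins are made in steps. Cytosolic phospholipase A2, encoded by Pla2g4a, frees arachidonic acid from membranes, the cyclooxygenases encoded by Ptgs1 and Ptgs2 turn it into a common precursor, and terminal synthases such as those encoded by Ptges (prostaglandin E synthase) and Ptgis (prostacyclin synthase) make the individual hormones. These act through cell surface receptors, among them Ptger2, Ptger3 and Ptger4 for prostaglandin E2 and Ptgfr for prostaglandin F2 alpha, and 15-hydroxyprostaglandin dehydrogenase, encoded by Hpgd, inactivates them. In the mouse uterus the pathway is known for its part in embryo attachment and in the change of stroma into decidua, and mice without Pla2g4a are known to implant late.

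These 10 genes were taken by name from tables of 23235 genes each, and all 10 were found in both tables. The uteri were taken on day 4 of pseudopregnancy, the state without embryos that follows mating with a vasectomized male, and their RNA was sequenced. Luminal epithelium, the cell layer that lines the uterine cavity, and stroma, the connective tissue beneath it, were captured with a laser. There were 4 libraries in 4 groups of 1: luminal epithelium with the genotype Msx1d/d/Msx2d/d, a knockout of 2 homeobox transcription factors described as specific to the uterus, luminal epithelium of the floxed control Msx1f/f/Msx2f/f (also called wild type in the labels), stroma of the knockout and stroma of the control. Each genotype is described as a single mouse, and the driver of the deletion and the age of the mice are not known here. No value below has a replicate, so differences describe these libraries and genotype cannot be told apart from animal.

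Levels are in RPKM, in which reads are divided by transcript length and by the mapped reads of a library, so they can be set side by side between genes. The depth, to 3 digits, was estimated at 90700000 reads in labelled-knockout epithelium and 6240000 reads in control epithelium, a difference of 14.5 times, and at 62500000 reads in labelled-knockout stroma and 42700000 reads in control stroma. Msx1 was at 13.6 RPKM in labelled-knockout epithelium and 23.2 RPKM in control epithelium, which is the direction of the label. Msx2 was at 2.06 and 1.31 RPKM, which goes against the label. The exons deleted are not known here, and a value over the whole gene need not fall when a few exons are lost. The libraries are therefore called labelled knockout, and every direction rests on those labels. All 12 epithelial markers were at or above 1 RPKM in both epithelial libraries and below 1 RPKM in both stromal libraries. Of 12 stromal markers, 12 reached 1 RPKM in labelled-knockout stroma and 11 in control stroma, against 1 in labelled-knockout epithelium and 5 in control epithelium. The summed level of 10 leukocyte markers was 2.73 RPKM in labelled-knockout epithelium and 19.7 RPKM in control epithelium, with 8 of 10 lower and 1 listed at 0 in each, and 58.6 and 137 RPKM in labelled-knockout and control stroma, with 10 of 10 lower. Fewer cells of a type and less RNA per cell cannot be told apart in such captures.

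The start regions of 3 members are shown because Ptgs2 and Ptger2, of the members averaging 1 RPKM or more in epithelium, are those that passed the 2-fold mark between genotypes, in opposite directions, and Ptgs1 is the other cyclooxygenase. The sequences are from RefSeq, build GRCm38.p6, on the plus strand, and run 250 bases before to 30 bases after the annotated start, at chr1:150099781-150100060 for Ptgs2, chr2:36230176-36230455 for Ptgs1 and chr14:44987861-44988140 for Ptger2. Capitals mark matches to any of 5 short motifs.
Ptgs2: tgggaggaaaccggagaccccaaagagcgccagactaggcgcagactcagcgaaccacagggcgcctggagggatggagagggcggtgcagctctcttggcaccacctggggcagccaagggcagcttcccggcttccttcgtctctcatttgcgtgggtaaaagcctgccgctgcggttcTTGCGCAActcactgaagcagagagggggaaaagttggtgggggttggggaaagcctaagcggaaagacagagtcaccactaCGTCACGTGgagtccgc
Ptgs1: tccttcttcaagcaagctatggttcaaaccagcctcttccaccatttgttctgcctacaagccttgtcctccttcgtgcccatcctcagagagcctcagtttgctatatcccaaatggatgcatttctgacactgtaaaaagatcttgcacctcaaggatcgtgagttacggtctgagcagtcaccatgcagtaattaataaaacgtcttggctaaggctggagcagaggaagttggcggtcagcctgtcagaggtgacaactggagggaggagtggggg
Ptger2: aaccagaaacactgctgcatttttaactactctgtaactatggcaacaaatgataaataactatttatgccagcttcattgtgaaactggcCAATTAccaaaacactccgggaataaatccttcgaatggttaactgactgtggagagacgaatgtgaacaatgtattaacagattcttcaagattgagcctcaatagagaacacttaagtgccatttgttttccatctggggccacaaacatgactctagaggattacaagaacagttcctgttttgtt

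The motifs, searched on both strands and chosen with the sequences in view, were the cyclic AMP response half-site TGACG, the E-box CACGTG, the C/EBP motif TTGCNNAA, the homeodomain motif TAATTG known for Msx proteins and the AP-1 motif TGANTCA. In the Ptgs2 window the half-site lay at 14 to 18 bases after the start and shared its last bases with the E-box at 17 to 22, and the C/EBP match lay at -69 to -62. The Ptger2 window held a single match, TAATTG on the minus strand at -159 to -154, and the Ptgs1 window held none of the 5 motifs. Of 32851 windows of the same length, 19.9% held the half-site, 6.79% the E-box, 10.4% the C/EBP motif, 7.65% TAATTG and 7.46% the AP-1 motif. Such matches describe letters and not binding. Windows were found for 9 of the 10 genes, all but Ptgis, and the other windows held none of the 5 motifs.

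The members fell into an epithelial and a stromal set. Pla2g4a, Ptgs1, Ptger4 and Ptger2 were the 4 most abundant members in control epithelium, and Ptgs2 joined them above 1 RPKM in the labelled-knockout library. Ptges, Ptgis, Hpgd and Ptger3 were higher in stroma than in epithelium in both genotypes, at levels between 0.386 and 1.58 RPKM in stroma. Ptger4 was the only member above 2 RPKM in all 4 libraries. Ptgfr did not exceed 0.315 RPKM in any library. The levels of epithelium and stroma come from 2 tables that may have been normalized separately, so contrasts between compartments are levels set side by side.

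**Figure D1:**
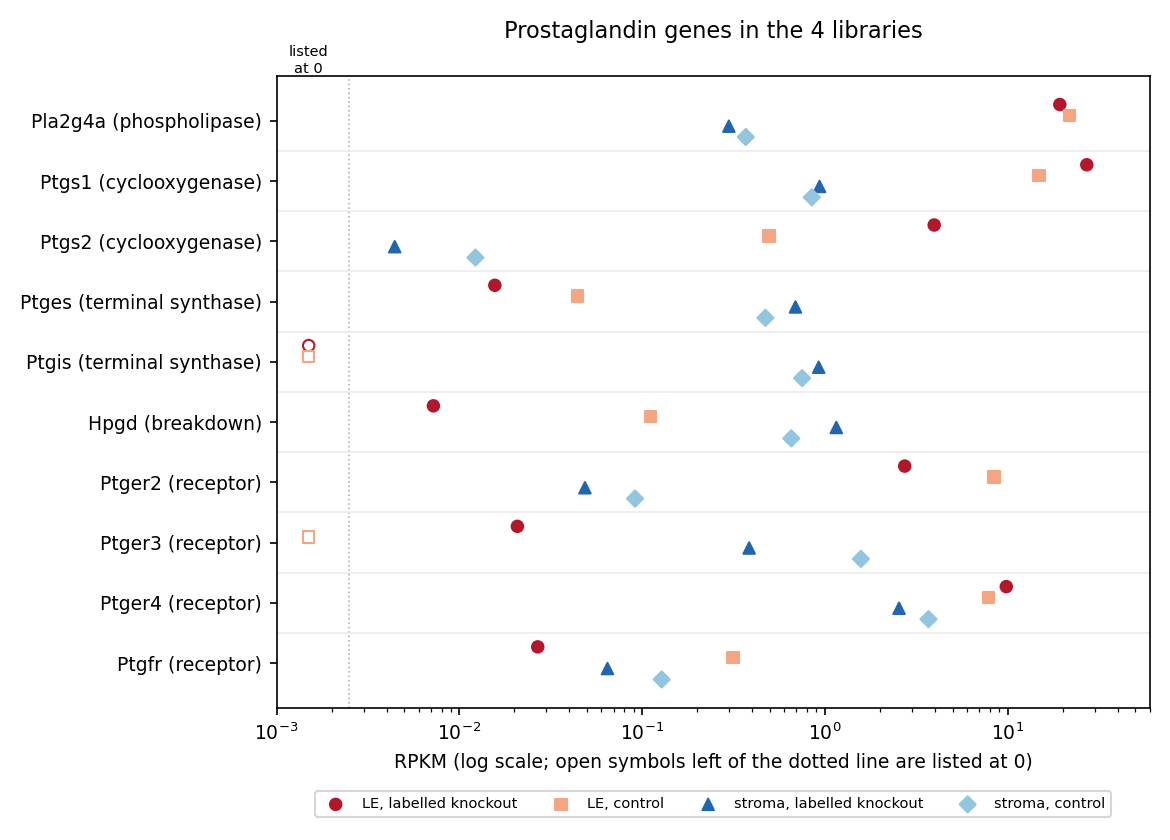
RPKM of each of the 10 genes on a log axis, 1 symbol for each library, with open symbols left of the dotted line for genes listed at 0. The epithelial libraries lie right of the stromal ones for Pla2g4a, Ptgs1, Ptgs2, Ptger2 and Ptger4 and left of them for Ptges, Ptgis, Hpgd and Ptger3.

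Pla2g4a (NM_008869; chromosome 1, 151676752 to 151808414, mm9) was at 19.3 RPKM in labelled-knockout epithelium and 21.8 RPKM in control epithelium, and at 0.299 and 0.370 RPKM in labelled-knockout and control stroma. It stood among the most abundant messages of the epithelium, above 96.5% and 97.2% of genes with a value above 0 in the labelled-knockout and control library. The ratio of labelled knockout to control in epithelium was 0.886, with limits of 0.795 and 0.988, and in stroma 0.808 with limits of 0.529 and 1.26. These are 95% exact binomial limits on estimated reads and cover counting error only. Ptgs2 lies 139 kb from Pla2g4a on chromosome 1 and had a much lower level in control epithelium, 0.496 RPKM.

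Ptgs1 (NM_008969; chromosome 2, 36085946 to 36107789), the cyclooxygenase usually made without induction, was at 27.1 RPKM in labelled-knockout epithelium and 14.8 RPKM in control epithelium. It was the most abundant member in the labelled-knockout library and the second in the control, after Pla2g4a. The ratio was 1.83, with counting limits of 1.61 and 2.09, and the log2 difference of 0.83 stayed below the 2-fold mark. In stroma Ptgs1 was at 0.936 and 0.849 RPKM in labelled knockout and control, a ratio of 1.10 whose limits of 0.847 and 1.43 include 1.

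Ptgs2 (NM_011198; chromosome 1, 151947254 to 151955142), the inducible cyclooxygenase, was at 3.97 RPKM in labelled-knockout epithelium and 0.496 RPKM in control epithelium, about 1531 and 13 reads. The ratio of 8.0 had counting limits of 4.73 and 15.3, a wide interval set by the few reads of the shallow control. In stroma it was at 0.00443 and 0.0123 RPKM, 1 and 2 estimated reads in libraries where 3 reads would be 0.0113 and 0.0165 RPKM, so no ratio is given. Of the 4 libraries, the epithelial ones held Ptgs2 above that floor and the stromal ones did not. The authors' deposited table gave Ptgs2 in epithelium a q-value of 0.0977 and did not mark it significant.

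Both cyclooxygenases were higher in labelled-knockout epithelium, and their sum was 31.1 RPKM there against 15.3 RPKM in control epithelium. Ptgs2 made up 12.8% of the sum in the labelled-knockout library and 3.24% in the control. Ptgs1 remained the more abundant of the pair, 6.84 times Ptgs2 in labelled-knockout epithelium and 29.9 times in control epithelium. In stroma the sum was 0.941 RPKM in labelled knockout and 0.861 RPKM in control. The leukocyte markers, from cells that can also make Ptgs2, were lower in labelled-knockout epithelium, and Ptgs2 was at or under 0.0123 RPKM in stroma, where the leukocyte sums were 58.6 and 137 RPKM. Their part in the Ptgs2 difference was not tested.

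**Figure D2:**
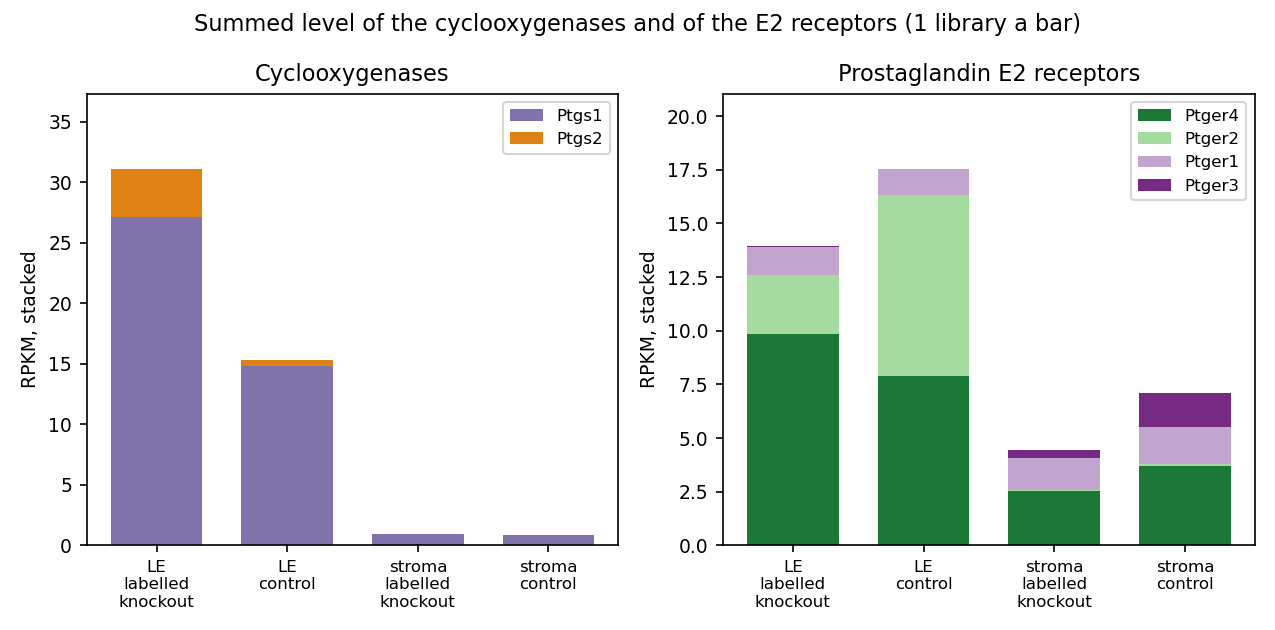
Stacked RPKM of the 2 cyclooxygenase genes (left) and of the 4 prostaglandin E2 receptor genes (right), 1 bar for each library. Ptger1, whose level is uncertain, makes up 32.8% of the receptor bar in labelled-knockout stroma and 24.3% in control stroma. The cyclooxygenase bar of labelled-knockout epithelium reaches 31.1 RPKM and that of control epithelium 15.3 RPKM. Ptger2 is the light green part that is large in control epithelium, at 8.44 RPKM, and smaller in labelled-knockout epithelium, at 2.74 RPKM.

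The terminal synthases Ptges and Ptgis and the breakdown enzyme Hpgd were higher in stroma than in epithelium. Ptges (NM_022415; chromosome 2, 30744991 to 30758817) was at 0.691 RPKM in labelled-knockout stroma and 0.473 RPKM in control stroma, 1.46 times as much, with counting limits of 1.09 to 1.96. In epithelium it was at 0.0157 and 0.0444 RPKM, 5 reads in labelled knockout and 1 read in control. Ptgis (NM_008968; chromosome 2, 167028696 to 167066037) was at 0.926 and 0.751 RPKM in labelled-knockout and control stroma, the limits of the ratio, 0.893 to 1.71, including 1, and was listed at 0 in both epithelial libraries. Hpgd (NM_008278; chromosome 8, 58773349 to 58799843) was at 1.16 RPKM in labelled-knockout stroma and 0.656 RPKM in control stroma, 1.76 times as much (limits 1.23 to 2.62), and had 1 read in each epithelial library. All 3 were higher in labelled-knockout stroma, each by less than 2-fold. Of the 7723 genes averaging 1 RPKM or more over the stromal pair, 4957 were also higher in labelled knockout. The depth of control epithelium sets what could be seen there, since 3 reads would be 0.139 RPKM for Ptges, 0.252 RPKM for Ptgis and 0.324 RPKM for Hpgd. A level in control epithelium as low as that of Ptgis or Hpgd in stroma would have been above those marks.

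Among the prostaglandin E2 receptors, Ptger2 (NM_008964; chromosome 14, 45607786 to 45623495), a receptor that raises cyclic AMP, was at 2.74 RPKM in labelled-knockout epithelium and 8.44 RPKM in control epithelium, from about 865 and 184 reads. It was 3.08-fold lower in the labelled-knockout library, with counting limits of 2.62 and 3.63. In stroma it was at 0.0487 and 0.0916 RPKM in labelled knockout and control, about 11 and 14 reads. The leukocyte sum was also lower in labelled-knockout epithelium, and the stromal libraries, whose leukocyte sums were higher than in either epithelial library, held Ptger2 below 0.1 RPKM. The part of leukocytes in the Ptger2 difference was not tested. The authors' deposited table gave a q-value of 0.566 for Ptger2 in epithelium.

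Ptger4 (NM_008965; chromosome 15, 5183404 to 5193831), which also signals through cyclic AMP, was at 9.85 RPKM in labelled-knockout epithelium and 7.88 RPKM in control epithelium, 1.25 times as much (counting limits 1.06 to 1.48). The log2 difference of 0.29 became 0.07 when the 50 most abundant genes were left out of the scaling. In stroma it was at 2.55 RPKM in labelled knockout and 3.69 RPKM in control, 0.690 times as much (limits 0.607 to 0.784). It was the most abundant member in both stromal libraries. In control epithelium Ptger2 and Ptger4 stood close together, Ptger2 at 1.07 times Ptger4, whereas in labelled-knockout epithelium Ptger2 was at 0.278 times Ptger4. With Ptger1 added, whose level is uncertain, Ptger2 made up 19.6% of the summed E2 receptor message in labelled-knockout epithelium and 48.1% in control epithelium. Ptger4 made up 70.6% and 44.9%. The sum itself was 13.9 RPKM in labelled-knockout epithelium and 17.5 RPKM in control epithelium.

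Ptger3 (NM_011196; chromosome 3, 157229856 to 157307722), a receptor that lowers cyclic AMP, was a stromal gene here, at 0.386 RPKM in labelled-knockout stroma and 1.58 RPKM in control stroma, about 71 and 198 reads. It was 4.09-fold lower in the labelled-knockout library, with counting limits of 3.10 and 5.43, the largest ratio between genotypes of any member in stroma. Its mean over the pair, 0.981 RPKM, fell just under the minimum of 1 RPKM used for counts, and its log2 difference of RPKM + 1 was -0.89, so it is counted among the members neither kept nor past 2-fold. In epithelium it was at 0.0208 RPKM in labelled knockout, about 6 reads, and listed at 0 in control. The leukocyte sum in stroma was lower in the labelled-knockout library too, 58.6 against 137 RPKM, and its part in the Ptger3 difference was not tested.

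Ptgfr (NM_008966; chromosome 3, 151461574 to 151500492), the receptor for prostaglandin F2 alpha and best known from uterine muscle, was low in all 4 libraries. It was at 0.0269 RPKM in labelled-knockout epithelium and 0.315 RPKM in control epithelium, about 16 and 13 reads, 11.7-fold lower with limits of 5.22 and 26.2. In stroma it was at 0.0647 and 0.128 RPKM in labelled knockout and control, 0.505 times as much (limits 0.293 to 0.867). The 6 smooth muscle markers summed to 0.572 RPKM in labelled-knockout epithelium and 4.95 RPKM in control epithelium, with 6 of 6 lower. Their sums in stroma were 18.6 and 16.0 RPKM in labelled knockout and control. Their part in the Ptgfr difference was not tested.

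**Figure D3:**
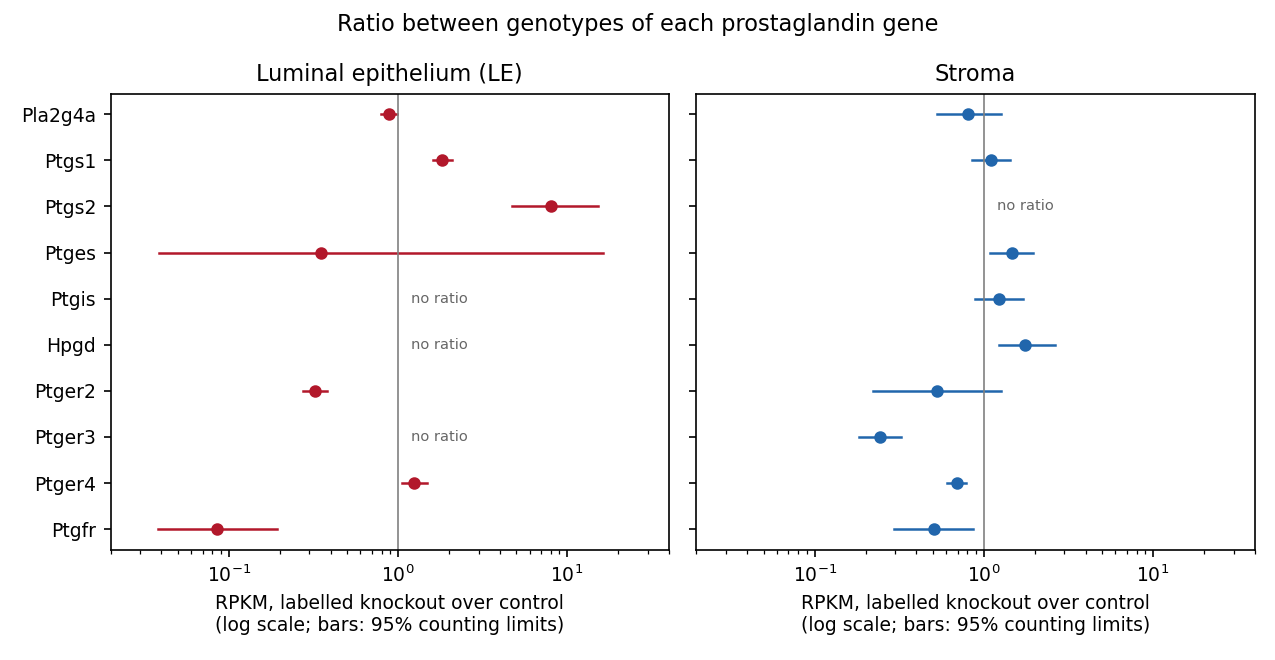
Ratio of RPKM in labelled knockout to control for each gene in luminal epithelium (left) and stroma (right), on a log axis, with 95% limits from counting error alone. Ptgs2 lies at 8.0 and Ptger2 at 0.324 in epithelium, and Ptger3 at 0.245 in stroma. No ratio is drawn where neither library had more than 3 estimated reads or where control was listed at 0.

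Counted by the same rule as all genes, 5 of the 10 members reached 1 RPKM on average over the epithelial pair and were kept. Of those 5, 2 passed a log2 difference of 1, Ptgs2 higher and Ptger2 lower. Ptgs2, at 0.496 RPKM in control epithelium, was kept only through its level in the labelled knockout, where it was high. Over all genes 7.02% of the 7736 kept passed that mark, 5.03% higher and 1.99% lower. Scaling each library to its sum without the 50 most abundant genes turned the background from 389 higher and 154 lower genes into 312 higher and 232 lower, and Ptgs2 and Ptger2 remained past the mark. The median log2 difference was 0.29 over the 5 kept members and 0.10 over all kept genes. The 5 members not kept were Ptges, Ptgis, Hpgd, Ptger3 and Ptgfr. In stroma Ptger4 alone was kept and no member passed, against 3.04% of the 7723 genes kept, 1.45% higher and 1.59% lower. With 1 library a group no test across samples was made here. In the authors' deposited table no member in stroma had an unadjusted p under 0.05, the lowest being 0.0987, for Ptger3.

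By counting error alone more members stood apart. Limits were counted for genes with more than 3 estimated reads in a library of the pair, 8 members in epithelium and 9 in stroma. The limits of the ratio left out 1 for 6 of the 8 in epithelium, Ptgs1, Ptgs2 and Ptger4 higher and Pla2g4a, Ptger2 and Ptgfr lower. These limits do not cover the choice of scaling. Over the pseudocounts and scalings tried, the log2 difference in epithelium lay between -0.40 and -0.09 for Pla2g4a. It lay between 0.07 and 0.36 for Ptger4 and between 0.60 and 0.91 for Ptgs1. In stroma they did so for 5 of the 9, Ptges and Hpgd higher and Ptger3, Ptger4 and Ptgfr lower. The same held for 27.6% of 14114 genes in epithelium, 16.3% higher and 11.3% lower, and for 35.1% of 15028 genes in stroma, 21.8% higher and 13.3% lower. In the authors' deposited tables no member was marked significant in either compartment, with 94 of 23235 genes marked in epithelium and 5 in stroma. The lowest q-value of a member there was 0.0828, for Ptgfr in epithelium, and 4 members in epithelium and 3 in stroma had been left untested by the authors.

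Between compartments, 5 of 5 kept members were past 2-fold higher in epithelium than in stroma in the labelled knockout, namely Pla2g4a, Ptgs1, Ptgs2, Ptger2 and Ptger4. In the control 3 of 4 kept members were, with Ptger4 at a log2 difference of 0.92. Ptges, Ptgis, Hpgd and Ptger3, higher in stroma, averaged below 1 RPKM over the compartments in both genotypes and were not kept. Of the kept members, all but Ptger4 were below 1 RPKM in stroma and were kept through their epithelial level. These counts could therefore hold no member higher in stroma. Among all genes 31.4% passed 2-fold between the compartments in the labelled knockout, 20.7% higher and 10.7% lower in epithelium, and 31.7% in the control, 19.6% higher and 12.1% lower. Of all genes past 2-fold, 66.0% were higher in epithelium in the labelled knockout and 61.8% in the control, but 45.3% and 34.5% after division by the upper quartile. Pla2g4a was 64.7 times as high in epithelium as in stroma in the labelled knockout and 59.0 times in the control, with limits of 48.6 to 86.5 and 42.7 to 83.1. Ptgs1 was 29.0 times as high in the labelled knockout and 17.5 times in the control. Ptger2 was 56.2 times as high in the labelled knockout and 92.2 times in the control. Ptger4 had the smallest epithelial excess of these, 3.86 times in the labelled knockout and 2.13 times in the control. After division by the upper quartile its log2 difference was 1.16 in the labelled knockout and 0.32 in the control, against 1.61 and 0.92 as deposited. In the other direction Ptges was 44.2-fold lower in epithelium than in stroma in the labelled knockout, with limits of 18.1 and 135, and Ptger3 18.5-fold lower with limits of 7.51 and 48.4. By counting limits 5 members were higher and 5 lower in epithelium in the labelled knockout, against 78.4% of all genes in either direction, 42.5% higher and 35.9% lower. In the control 6 were higher and 4 lower, against 53.9% of all genes, 30.8% higher and 23.0% lower. Ptgfr accounts for the difference, at 2.46 times the stromal level in control epithelium and 2.41-fold below it in labelled-knockout epithelium.

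The rest of the pathway was read from a list of 51 genes, all in the tables, of which Fam213b was matched by an older name. In epithelium 18 of the 51 were kept, 2 were past 2-fold higher and 3 past 2-fold lower in the labelled knockout, with a median log2 difference of -0.09 over those kept. Over all kept genes in epithelium 5.03% were past 2-fold higher and 1.99% lower, with a median of 0.10. In stroma 10 were kept, none was higher and 1 was lower, with a median of 0.15. The shares over all kept genes in stroma were 1.45% higher and 1.59% lower, with a median of 0.07. Of the listed genes past 2-fold, Slco2a1 in epithelium and Akr1b3 in stroma were below 1 RPKM in 1 library of the pair. They were kept only through the library where they were high.

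Among the genes of transport and breakdown, Slco2a1, the prostaglandin transporter that carries the hormones into cells for breakdown, was at 2.70 RPKM in labelled-knockout epithelium and 0.0447 RPKM in control epithelium, from about 1695 and 2 reads. The ratio was 60.3, with counting limits of 16.1 and 482. It was the only gene of the list or the members that the authors' deposited table marked significant, with a q-value of 5.39e-05. In stroma Slco2a1 was at 0.259 RPKM in labelled knockout and 0.404 RPKM in control, 0.641 times as much (limits 0.492 to 0.839). Endothelial cells are known to make Slco2a1, and the 8 endothelial markers summed to 0.439 RPKM in labelled-knockout epithelium and 0.561 RPKM in control epithelium. Their part in the Slco2a1 difference was not tested. Abcc4, an exporter of prostaglandins, was the most abundant listed gene of transport and breakdown in each library, at 6.10 and 3.97 RPKM in labelled-knockout and control epithelium and at 1.37 and 1.31 RPKM in labelled-knockout and control stroma.

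Among synthases and reductases, Cbr2, a carbonyl reductase, was at 16.3 RPKM in labelled-knockout epithelium and 84.8 RPKM in control epithelium, 5.20-fold lower with limits of 4.67 and 5.77. Its relative Cbr1, which in humans is known to convert prostaglandin E2 to F2 alpha, was at 5.40 RPKM in labelled-knockout epithelium and 1.85 RPKM in control epithelium, 2.91 times as much (limits 1.65 to 5.67). A further relative, Cbr3, was at 0.462 and 0.450 RPKM in labelled-knockout and control epithelium, under the minimum of 1 RPKM. In stroma Cbr3 was higher, at 3.66 and 2.91 RPKM in labelled knockout and control. Akr1b3, an aldose reductase with prostaglandin F synthase activity, was at 0.453 and 2.44 RPKM in labelled-knockout and control stroma, 5.39-fold lower with limits of 3.63 and 8.05, and at 1.15 and 3.19 RPKM in labelled-knockout and control epithelium. Its locus overlaps that of Gm6644, which was at 6.09 and 4.11 RPKM in labelled-knockout and control stroma and at 9.51 and 1.32 RPKM in labelled-knockout and control epithelium, so how reads were divided between the 2 genes is uncertain. Ptges3, a cochaperone also described as a prostaglandin E synthase, was abundant in each library, at 36.2 and 30.2 RPKM in epithelium and 13.0 and 10.3 RPKM in stroma, labelled knockout and control.

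Upstream of the cyclooxygenases, Pla2g16, a small phospholipase, was at 1.44 RPKM in labelled-knockout epithelium and 4.22 RPKM in control epithelium, 2.93-fold lower with limits of 2.32 and 3.71. Pla2g10, a secreted phospholipase, was as abundant as Pla2g4a, at 19.4 and 20.2 RPKM in labelled-knockout and control epithelium, 0.960 times as much (limits 0.817 to 1.14). The most abundant phospholipase of the list in stroma differed by genotype, Pla2g6 at 0.878 RPKM in the labelled knockout and Pla2g7, known from macrophages, at 1.14 RPKM in the control. Lpar3, the lysophosphatidic acid receptor known to be needed for uterine Ptgs2 and timely implantation, was at 23.6 and 25.1 RPKM in labelled-knockout and control epithelium, and the limits of the ratio, 0.844 to 1.05, include 1. Il1r1, a receptor for interleukin 1, an inducer of Ptgs2, was at 3.67 RPKM in labelled-knockout epithelium and 11.7 RPKM in control epithelium, 3.18-fold lower with limits of 2.84 and 3.56. Ptger1, the remaining E2 receptor, whose level is uncertain, was at 1.33 and 1.22 RPKM in labelled-knockout and control epithelium and at 1.45 and 1.72 RPKM in labelled-knockout and control stroma. Of the nuclear receptors Rxra was highest, between 1.91 and 2.93 RPKM in the 4 libraries.

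**Figure D4:**
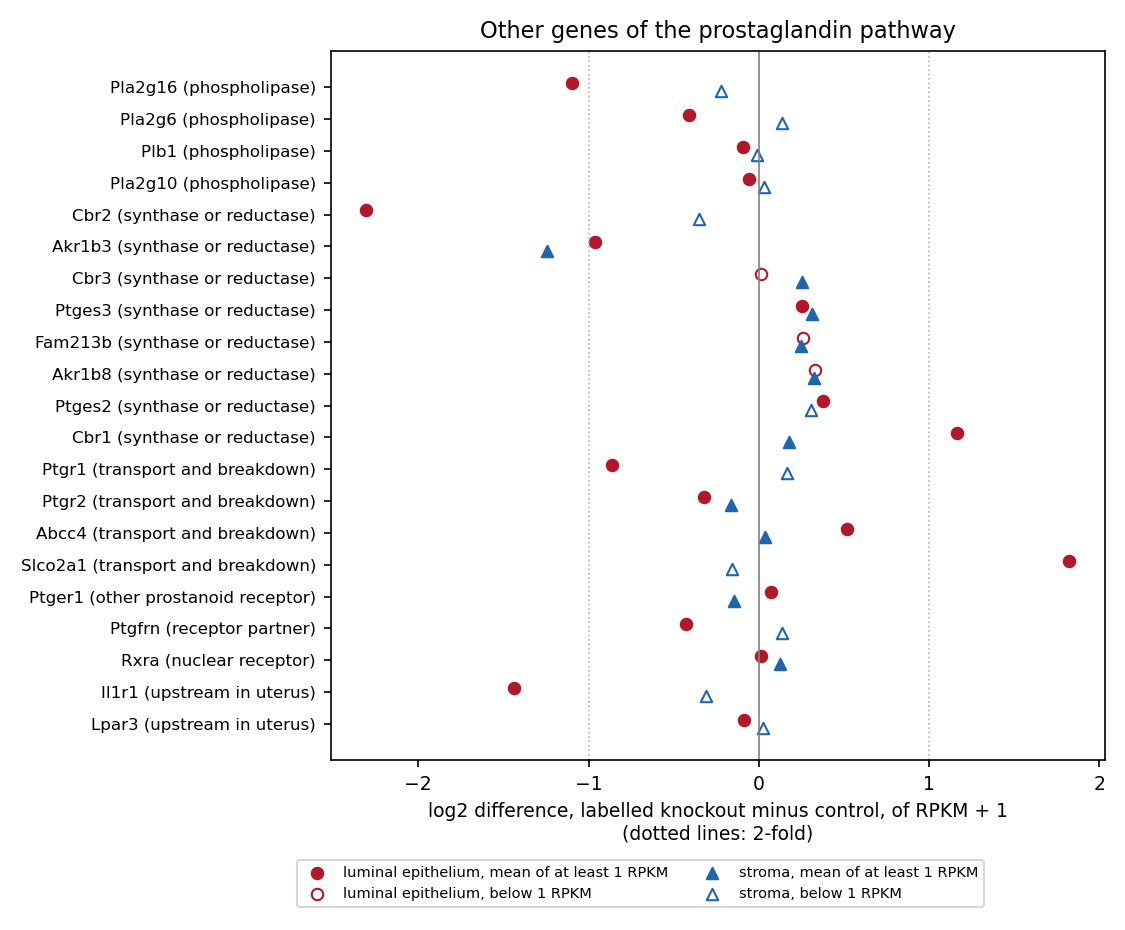
Log2 difference of RPKM + 1, labelled knockout minus control, for the 21 listed pathway genes that averaged 1 RPKM or more in luminal epithelium or stroma, with open symbols where the compartment's own mean was lower. Slco2a1 and Cbr1 lie past the right dotted line and Cbr2, Il1r1 and Pla2g16 past the left one in epithelium, and Akr1b3 past the left one in stroma.

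The coding genes with the most similar levels over the 4 libraries were found by distance on the log2 scale after division by each library's upper quartile. For Ptgs1 these were Ank, a pyrophosphate transporter, at a distance of 0.36, Rdh10, a retinol dehydrogenase, at 0.39 and the potassium channel gene Kcnk1 at 0.58. For Ptgs2 they were Olfr843 at 0.20, Abp1 at 0.25 and Csf3, a colony-stimulating factor, at 0.27. For Ptger2 they were Noxa1 at 0.30, Them5 at 0.35 and the clock-related transcription factor gene Npas2 at 0.35. With 4 libraries such likeness describes levels only.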

How the data were processed

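RNA was sequenced from 4 laser-captured mouse uterine samples, 1 per group. The authors deposited RPKM values, 1 table for each compartment, with p-values and q-values of their own comparison. The submitters' processing notes name Cufflinks 2.0.2, TopHat2 2.0.5, an unversioned TopHat, CASAVA 1.8.2 and the build mm9, and how strand entered the values was not given in the sources used here. Overlapping genes therefore cannot be told apart by strand.

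The members and lists were chosen with earlier results of these data known. Differences were log2((labelled knockout + 1)/(control + 1)), with a pseudocount of 1 RPKM that understates low genes. Counts used genes averaging 1 RPKM or more over the pair and a log2 difference of at least 1. Every member was named, with listed pathway genes past that mark, the most abundant of each role, and the 3 nearest coding genes to Ptgs1, Ptgs2 and Ptger2. Depth was estimated from the spacing of low values, using GENCODE vM21 transcript lengths less 200 bases. Of these low values, 64.5% to 65.6% lay within 0.2 of a whole read, where part of any evenly spread values would also lie. Spacings were fitted to the same values, so depths are approximate. Amplified reads are not separate molecules, so limits and floors cover counting error only. Starts count from 1, raised by 1 from the tables. A gene listed at 0 may be a failed estimate. The steps were tested on simulated whole reads with the same lengths, which could not show an error in those lengths. Alternatives were other pseudocounts, minimum levels, scalings and gene sets. Limits came from scipy 1.17.1, tables from pandas 2.3.3 with numpy 2.4.6, and figures from matplotlib 3.10.9, all under Python 3.11.15.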

Additional observations from a re-analysis of the deposited data

Results flagged for a closer look

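Ptger4 differed in opposite directions by compartment, with a ratio of labelled knockout to control of 1.25 in luminal epithelium and 0.69 in stroma, both with counting limits that leave out 1. The epithelial difference depends on scaling, since its log2 value of 0.29 became 0.07 without the 50 most abundant genes. Slco2a1 also differed in opposite directions, at 60.3 in luminal epithelium and 0.641 in stroma. Ptgfrn, a protein that binds the prostaglandin F receptor, went the other way, at 0.633 in luminal epithelium and 1.25 in stroma. The difference between compartments was not tested, since each ratio rests on 1 library a group.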

How the results depend on the processing

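The count of members past 2-fold between genotypes in luminal epithelium stayed at 2 under both other pseudocounts and both other scalings. It was 1 with a minimum mean of 5 RPKM, and 6 when counting limits that leave out 1 were used in place of the fold, both chosen after seeing the data. In stroma it stayed at 0 under both other pseudocounts and both other scalings, and was 5 by counting limits. As deposited Ptger4 alone was kept there, and its ratio of 0.690 could not pass 2-fold under any pseudocount. Ptger3, left out by its mean of 0.981 RPKM, had log2 differences of -1.23 and -1.79 with pseudocounts of 0.5 and 0.1 RPKM. Over all genes, the count in luminal epithelium was 543 of 7736 kept genes. It became 919 of 7736 with a pseudocount of 0.1 RPKM and 266 of 2273 with a minimum of 5 RPKM. The count in stroma, 235 of 7723 kept genes, became 70 of 7003 without small RNA and unnamed models. The causes of these moves were not tested. None of the 40 recomputed member differences in luminal epithelium, nor of the 40 in stroma, changed sign. A pseudocount cannot change a sign, so only the other scalings could have done so. Ptgis, listed at 0 in both epithelial libraries, could not change there under any setting. Ptgs2 in luminal epithelium lay between 1.59 and 2.77, Ptger2 there between -1.59 and -1.27, and Ptger3 in stroma between -1.79 and -0.89. The median of all kept genes in luminal epithelium was 0.10 as deposited, 0.16 after division by the upper quartile and -0.08 without the 50 most abundant genes. Between compartments it was 0.32 and 0.29 as deposited and -0.06 and -0.19 after division by the upper quartile, labelled knockout and control. Of the members' differences between compartments, 30 of 40 in the labelled knockout and 24 of 40 in the control moved beyond counting error under other pseudocounts or scalings. None changed sign, which again only the other scalings could have done. No replicate could be left out with 1 library a group. No paired analysis was possible because the labels give no replicate numbers and the genotypes compared are different animals with 1 library a group. Epithelium and stroma of a genotype may share an animal. Their tables may have been normalized separately, so the compartments were set side by side without a test. The shallow control of luminal epithelium limits what can be said of members with few reads there.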
